A study of Homo sapiens with 30 samples.

Results

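The members are 41 neighbouring genes of the 15q25-q26 bands of human chromosome 15, from NTRK3 to IGF1R in map order, out of 38122 genes measured. They were chosen by position, after an earlier look at the same data had shown a run of higher values in FaDu at pH 6.5. The FaDu contrast therefore chose them, and its values are given below as a description without a test. All 41 were found in the table, and 39 reached a mean of 10 normalised counts in FaDu, the level asked of every gene compared. NTRK3, a neurotrophin receptor kinase, and RLBP1, a retinoid carrier of the eye, did not.

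RNA was sequenced from 3 established human cancer lines, FaDu (squamous carcinoma of the hypopharynx), HCT116 (colon carcinoma) and SiHa (squamous carcinoma of the cervix), with 30 libraries in 6 groups of 5. Each line grew in DMEM with 10% fetal bovine serum, 10 mM glucose and 2 mM glutamine, set to pH 7.4 or pH 6.5 by the buffers PIPES and HEPES, each at 25 mM, at 37 °C and 5% CO2. Cells at pH 6.5 had been held at that pH for at least 1 month. Whether a group holds separate cultures, or separately adapted populations, is not in the labels, so any p-value measures only the spread between these libraries. In bulk RNA, a difference in every cell and a larger one in some of the cells cannot be told apart.

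Neighbouring genes on a chromosome usually differ in function and in control. In cancer lines whole segments of chromosomes are often gained or lost, which shifts many neighbours together. DNA copy number was not analysed here. This segment holds genes of unrelated roles: IDH2, the mitochondrial isocitrate dehydrogenase; BLM, FANCI, TICRR and POLG, which copy or repair DNA; FURIN, a protease that activates secreted precursors; and IGF1R, a growth factor receptor near the end of the chromosome arm.

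Libraries held 21.0 to 55.7 M reads, and 3 reads, the upper limit that a count of 0 allows, corresponded to 1.90 to 5.01 normalised counts. SMAD4, which FaDu lacks, stood at 0 to 3.13 in the pH 6.5 libraries and at 0 in pH 7.4 replicate 1 of FaDu, but at 675 to 1773 in replicates 2 to 5 of the FaDu pH 7.4 group. The 8 squamous markers summed to between 293357 and 461137 at pH 6.5, to 529239 in pH 7.4 replicate 1, and to between 47327 and 264244 in the other 4 libraries. Those 4 libraries carry HCT116 RNA, so pH 6.5 was compared with the single library pH 7.4 replicate 1, and the 4 mixed libraries were examined separately. Among markers of other cells, the endothelial list was represented by CDH5, at 326, 1959, 1028, 1157 and 2212 at pH 6.5 against 121 in pH 7.4 replicate 1, and by KDR at 0 to 1.04 against 2.2. The immune list summed to at most 19.9 in any FaDu library, and the mesenchymal list to between 464 and 834 at pH 6.5 against 574. The part of CDH5-expressing cells in the results below was not tested. In HCT116, pH 6.5 replicates 5, 6 and 7 carry SiHa RNA and only replicates 1 and 3 were used. In SiHa, mesenchymal markers summed to 4963 and 6229 in pH 7.4 replicates 6 and 7 against 3.42 to 299 in the other 8 libraries, and results are given with and without these 2.

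From MRPL46 to HDDC3 the members were higher in FaDu at pH 6.5, nearly all by more than 2-fold, and from UNC45A onward they were not. Of the 30 members of the first stretch that were compared, 29 were higher in all 5 libraries at pH 6.5 than in pH 7.4 replicate 1, and 28 were higher by at least 2-fold in the mean. Among them, MESP1, FES, ANPEP and WDR93 were below 10 in the control and were compared only through their pH 6.5 mean. For these genes the filter fixed in advance that the mean was higher at pH 6.5. Over all 19170 genes compared, 27.3% were higher in all 5 libraries and 8.05% were higher by at least 2-fold. The members were chosen on this contrast and were divided at HDDC3 where its ratios changed. Nothing is therefore read from that difference. The median log2 ratio of the 30 was 1.56, a 2.94-fold difference, with quartiles of 1.21 and 1.77. Over all genes compared the median was 0.01, with quartiles of -0.35 and 0.37. The exception was ISG20, an interferon-induced exonuclease, at 714, 371, 524, 477 and 413 against 514, so that its libraries lay on both sides of the control.

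**Figure D1:**
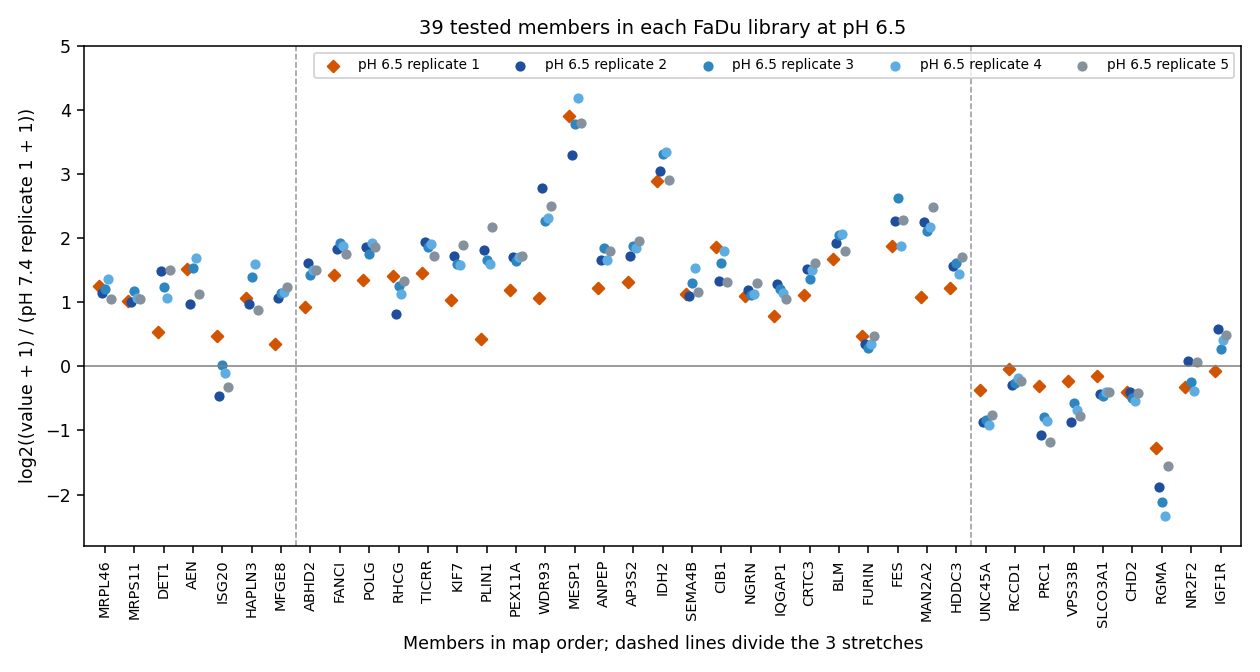
Log2 ratio of each FaDu library at pH 6.5 over pH 7.4 replicate 1 for the 39 members compared, in map order, with 1 added to both values. Points are single libraries (replicate 1 as diamonds) and dashed lines divide the stretches before ABHD2 and after HDDC3. Members up to HDDC3 lie mostly between 1 and 2, those from UNC45A on lie mostly below 0, and replicate 1 is closer to 0 for many members.

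The ratio had 2 levels inside the raised stretch. A segmentation of the 408 coding genes of chromosome 15 with a mean of at least 50 found 4 segments in FaDu, and the same 4 with penalties of 3, 6 and 9. The first, NIPA1 to TLNRD1 with 320 genes and no member, had a median log2 ratio of -0.41, and 256 of its genes were below 0. STARD5 to MFGE8, with 34 genes, stood at 0.70 (1.63-fold higher), and ABHD2 to HDDC3, with 25 genes, stood at 1.61 (3.05-fold higher) with 25 of 25 genes above 0. The last, UNC45A to TARS3 with 29 genes, stood at -0.25 with 24 genes below 0. The chromosome thus held a step up, a second step up and a single step down.

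Both outer ends fell at the same place in each of the 5 libraries when these were segmented singly, between TLNRD1 and STARD5 and between HDDC3 and UNC45A. All 5 ratios share the control library, so a step in that library would appear at the same place in each. The inner step fell between KLHL25 and MRPL46 in replicates 1, 3 and 4, between MFGE8 and ABHD2 in replicate 2, and between HAPLN3 and MFGE8 in replicate 5. The members before ABHD2 are the genes across which this inner step moved. Of these 8 members, 7 were compared, with a median of 1.21 (2.31-fold). The 24 members from ABHD2 to HDDC3, of which 23 were compared, had a median of 1.64 (3.11-fold) with quartiles of 1.42 and 1.85.

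**Figure D2:**
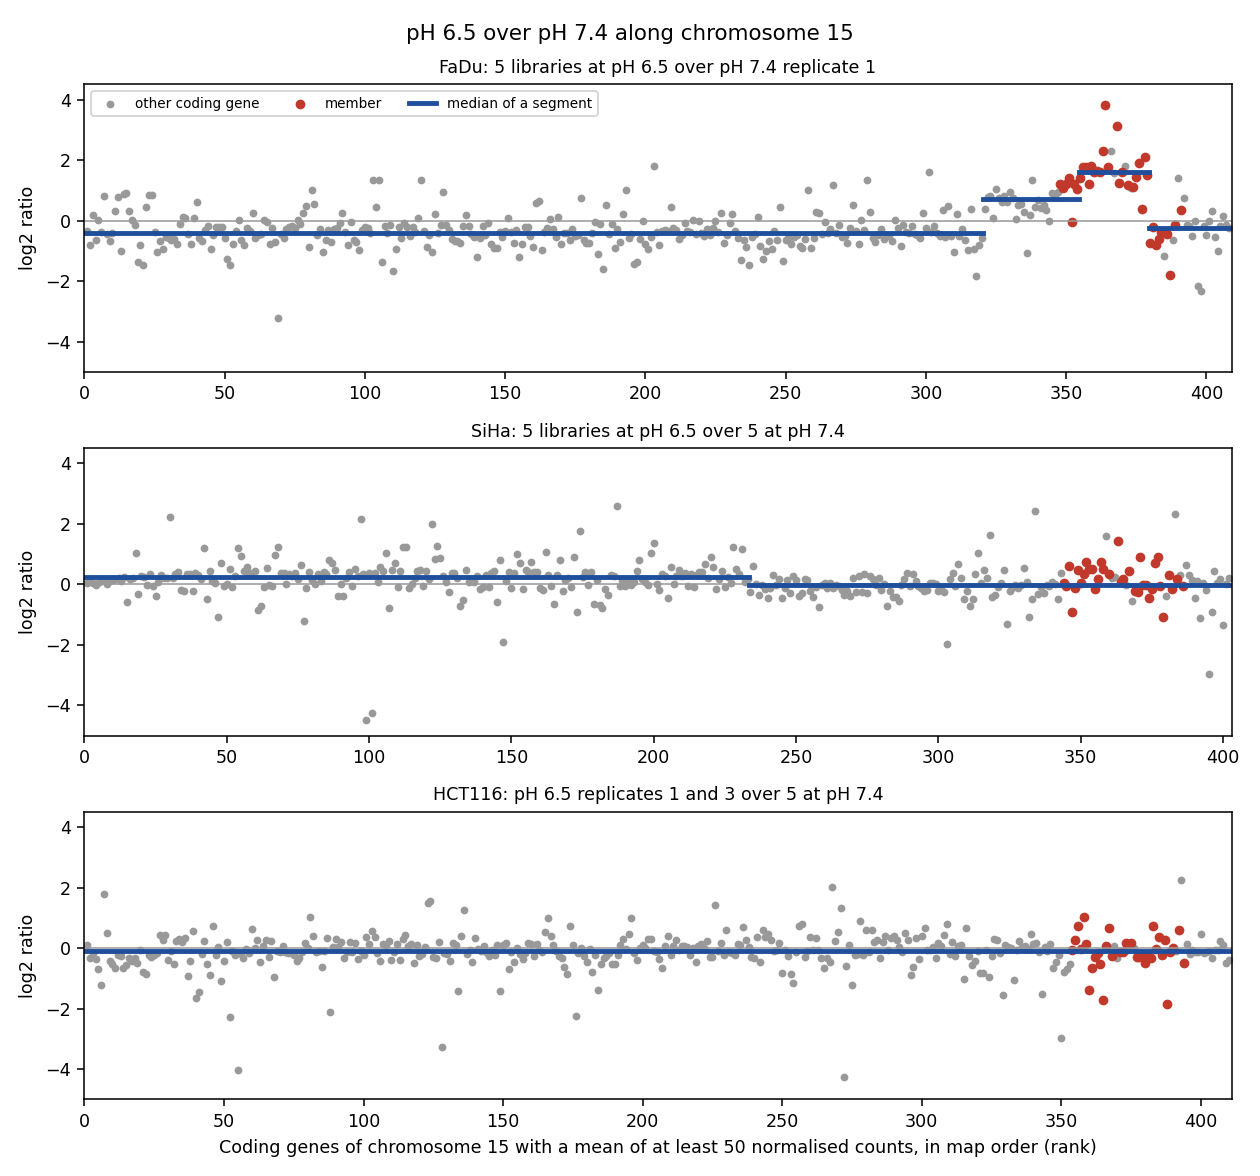
Log2 ratio of pH 6.5 over pH 7.4 for coding genes along chromosome 15 in FaDu, SiHa and HCT116 (members in red, other genes in grey), with the median of each segment as a blue line. FaDu has 4 segments with medians of -0.41, 0.70, 1.61 and -0.25, SiHa has 2 (0.24 and -0.02) and HCT116 has 1 (-0.10).

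The genes at the ends show how sharp the steps were. On the near side of the lower end, MESD, a chaperone of LRP receptors, was at 2063 ± 412 (SD, n = 5) against 3593, a log2 ratio of -0.80, and TLNRD1 was at 896 ± 295 against 1320, a ratio of -0.56. On its far side, STARD5, a lipid transfer protein, was at 591 ± 73.2 against 448 (0.40), MEX3B at 174 ± 35.2 against 102 (0.76) and EFL1, a ribosome assembly factor, at 2623 ± 308 against 1506 (0.80). The genes on both sides of this end are no members. From STARD5 to KLHL25, 22 of 27 genes were higher in all 5 libraries, with a median of 0.61. The outliers were BNC1, a transcription factor of squamous epithelium, at 1560 ± 441 against 3244 (-1.06), and GOLGA6L4 at 580 ± 168 against 230 (1.33), which has near-identical copies that may share its reads.

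At the upper end the change came between 2 adjacent members. HDDC3, a nucleotide phosphohydrolase, was at 472, 599, 622, 554 and 664 against 202. UNC45A, a chaperone of myosin, was at 4286, 3026, 3084, 2940.0 and 3247 against 5515. Every library of HDDC3 was above its control and every library of UNC45A was below it, at log2 ratios of 1.52 and -0.73. These genes lie on opposite strands and overlap, and the strand setting of the counting is not given in the sources used here, so some HDDC3 reads may belong to UNC45A, whose level is higher. Before HDDC3 lies MAN2A2, a Golgi mannosidase, at 1972, 4419, 4029, 4196 and 5177 against 927, and after UNC45A lies RCCD1 at 1450.2, 1217, 1251, 1317 and 1276 against 1493, with all 5 libraries above the control in the first and below it in the second.

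Of the 4 coding genes inside the stretch that are no members and reached a mean of 50, all were higher in all 5 libraries. ARPIN, an inhibitor of the Arp2/3 complex, had a log2 ratio of 2.29 (3457 ± 1425 against 706), GDPGP1 of 1.79, the zinc finger gene ZNF710 of 1.58 and ZNF774 of 1.06. Their median was 1.68, close to that of the members around them. GDPGP1 overlaps the far more abundant member CIB1 on the opposite strand, so some of its reads may belong to CIB1 if strand was not used.

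Across the genome no other run of neighbours in FaDu stood as high. In 12106 windows of 15 neighbouring coding genes, the highest median was 1.76, around PLIN1 on chromosome 15, and the highest on another chromosome was 1.16, around SLC30A7 on chromosome 1. Windows with a median of at least 1 numbered 42, of which 30 were on chromosome 15. Windows next to each other share most of their genes, so these are not counts of separate runs. The members were chosen on this same contrast, so nothing is read from the rank of their windows in FaDu. In SiHa the highest window of chromosome 15 was also among the members, around FANCI, at 0.47, and that of the genome was at 0.65. In HCT116 the lowest window of chromosome 15 was around MRPL46, at -0.48, and its highest, around SNUPN, was at 0.28, while a window on chromosome 17 reached 1.37.

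**Figure D3:**
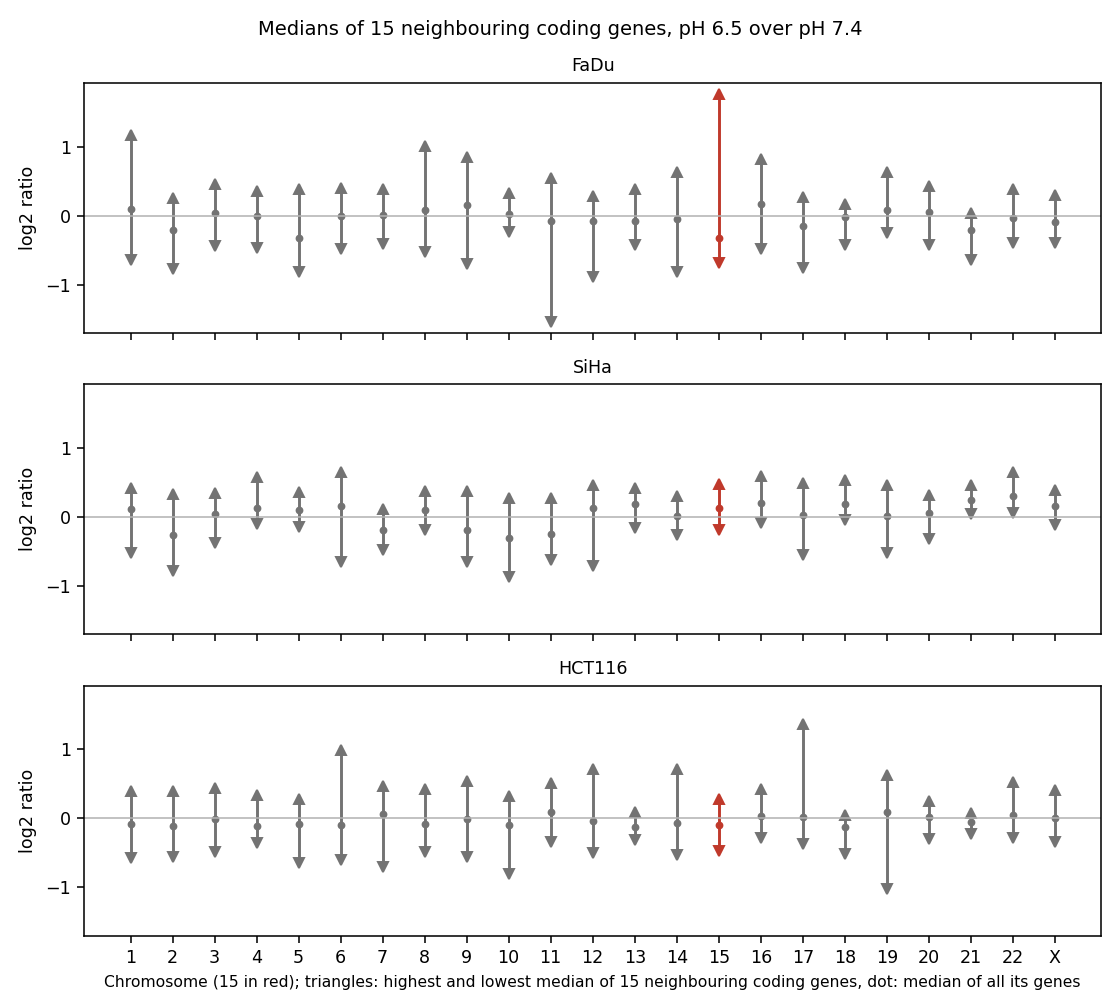
Highest and lowest median of 15 neighbouring coding genes on each chromosome (triangles) and the median of all its genes (dots), as log2 of pH 6.5 over pH 7.4, in FaDu, SiHa and HCT116, with chromosome 15 in red. In FaDu chromosome 15 has the highest window, at 1.76, while its median over all genes is -0.32.

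Among the members with a role in the mitochondrion, IDH2 (ENSG00000182054), which makes 2-oxoglutarate and NADPH from isocitrate, had the largest ratio of any member well above the detection limit. It stood at 6859, 7626, 9208, 9363 and 6969.7 at pH 6.5 against 924 at pH 7.4, so that its lowest library was far above the control and the mean was 8.66-fold higher (log2 3.11). The ribosomal protein genes MRPL46 and MRPS11, which are neighbours, were at 593 to 737 against 286 (1.21) and at 4619 to 5188 against 2292 (1.07), with all libraries above the control. NGRN, needed for the mitochondrial ribosome, was at 2985, 3153, 2990.1, 3051 and 3412 against 1387 (1.17). It may share reads with an overlapping pseudogene, PERPP2.

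Genome maintenance genes of the raised stretch had log2 ratios from 1.40 to 1.91. BLM (ENSG00000197299), the helicase lost in Bloom syndrome, was at 5073, 6009, 6577, 6629 and 5553 against 1587 (log2 1.91, 3.76-fold). FANCI (ENSG00000140525), a partner of FANCD2 in repair of crosslinked DNA, was at 16516, 21927, 23363, 22612 and 20742 against 6172 (1.77, 3.41-fold). TICRR (ENSG00000140534), which helps to start replication origins, was at 5809, 8097, 7639.8, 7929 and 6988 against 2109 (1.79, 3.46-fold). For each of these 3 genes replicate 1 was the lowest at pH 6.5 and still more than 2-fold above the control. POLG, the polymerase of mitochondrial DNA, was at 9077 to 13424 against 3551 (1.76), and AEN, a p53-induced nuclease, at 2104 to 3477 against 1072 (1.40). FANCI and POLG overlap on opposite strands, as do TICRR and KIF7, so their ratios are not independent of each other if strand was not used.

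Among signalling and transcription genes of the stretch, CRTC3, a coactivator of CREB, was at 4377, 5742, 5190.3, 5691 and 6178 against 2011 (1.43), and KIF7, a regulator of Hedgehog signalling, at 1681, 2701, 2483, 2453 and 3034 against 819 (1.59). DET1, part of a ubiquitin ligase, was at 397 to 771 against 272 (1.21), and CIB1, a calcium-binding protein, at 4723 to 6947 against 1901 (1.61). All of these libraries were above their control. The pH 7.4 values of MESP1 and FES rested on 4 reads each, with MESP1, a mesoderm transcription factor, at 52.0 to 97.1 against 4.39 (3.82), and FES, a tyrosine kinase of myeloid cells, at 18.7 to 32.4 against 4.39 (2.22). Their ratios are the least certain of the set.

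In the surface, secreted and metabolic group, ABHD2, a lipid hydrolase, was at 4364, 7027, 6152, 6545 and 6483 against 2296 (1.41), and MFGE8, a secreted bridge between phosphatidylserine and integrins, at 2053, 3369, 3567, 3605 and 3785 against 1605 (1.03). HAPLN3, a matrix link protein, was at 320 to 526 against 174 (1.21), and RHCG, an ammonium transporter of epithelia, at 192 to 289 against 109 (1.20). Libraries at pH 6.5 were above the control in each. PLIN1, which coats lipid droplets, stood at 27.1 to 92.8 against 19.8 (1.64) and overlaps PEX11A, which is far more abundant. ANPEP, an aminopeptidase, was at 16.7 to 26.2 against 6.59 (1.65), close to the detection limit.

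Trafficking genes of the stretch included FURIN, with the lowest ratio between ABHD2 and HDDC3. It was at 6571, 6029, 5775, 6004 and 6574 against 4711, only 1.31-fold higher (0.39), although genes on both sides of it were higher by more than 2-fold. IQGAP1, a cytoskeletal scaffold, was at 28735, 40354, 38542, 36898 and 34629 against 16623 (1.11), and SEMA4B, a semaphorin, at 20526, 19959, 23119.7, 27167 and 20945 against 9349.8 (1.26). AP3S2, a subunit of the AP-3 adaptor that sorts cargo to lysosomes, was at 1119 to 1741 against 448 (1.76), PEX11A, which divides peroxisomes, at 566 to 818 against 248 (1.61), and MAN2A2 at a ratio of 2.09. WDR93, of unassigned role, was at 21.9 to 74.2 against 9.89 (2.29), which is 9 reads in the control.

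Beyond HDDC3, 7 of 9 members were lower in all 5 libraries at pH 6.5 than in pH 7.4 replicate 1, beside 29.8% of all genes compared, and their median log2 ratio was -0.45. The division at HDDC3 was placed on these same ratios, so these values are a description and nothing is read from the counts. PRC1 (ENSG00000198901), which bundles microtubules in the dividing cell, was at 7629, 4488, 5443, 5194 and 4179 against 9420.1 (-0.81). VPS33B, a tethering factor of late endosomes, was at 398 to 616 against 726 (-0.61), SLCO3A1, an organic anion transporter, at 913 to 1142 against 1265 (-0.37) and CHD2, a chromatin remodeller, at 5139 to 5683 against 7481 (-0.45). RGMA, a ligand of neogenin, was at 24.0 to 51.0 against 125 (-1.78), and was the only one of the 9 lower by more than 2-fold, beside 7.05% of all genes. The other two, NR2F2, a nuclear receptor, at 1546 to 2129 against 2016 (-0.15), and IGF1R, at 2909, 4568, 3704, 4087 and 4279 against 3059 (0.35), had libraries on both sides of the control. Coding genes of that end that are no members had a median of -0.18 over 20 genes, and 11 of them were lower in all 5 libraries.

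Promoter sequences are shown to set members of the raised stretch beside a member beyond it. RefSeq (GRCh38.p14) promoters matched 37 of the 41 members. In the 250 bases before each start, the dinucleotide CG, which reads the same on both strands, occurred a median of 18 times in 27 compared members up to HDDC3 and 25.5 times in 8 compared members beyond it, against 11 in 27305 genes. Below are 3 such windows that hold no annotated exon, with each CG in capitals: KIF7 (chr15:89655468-89655717, minus strand) and CRTC3 (chr15:90529673-90529922, plus strand) from the raised stretch, and RGMA (chr15:93089212-93089461, minus strand), the lowest member of the far side. They hold 24, 34 and 44 CG, and 23.3%, 6.61% and 0.776% of genes hold at least as many.
KIF7: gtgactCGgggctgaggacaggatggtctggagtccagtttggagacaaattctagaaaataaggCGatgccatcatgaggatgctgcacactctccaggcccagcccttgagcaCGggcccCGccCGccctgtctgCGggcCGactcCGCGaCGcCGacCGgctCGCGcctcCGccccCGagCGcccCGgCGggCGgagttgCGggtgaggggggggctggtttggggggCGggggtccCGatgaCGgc
CRTC3: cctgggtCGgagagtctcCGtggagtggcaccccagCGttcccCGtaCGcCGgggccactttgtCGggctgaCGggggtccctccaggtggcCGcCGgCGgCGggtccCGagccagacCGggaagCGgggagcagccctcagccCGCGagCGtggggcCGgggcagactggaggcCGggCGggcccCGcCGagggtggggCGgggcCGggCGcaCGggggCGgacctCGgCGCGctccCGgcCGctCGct
RGMA: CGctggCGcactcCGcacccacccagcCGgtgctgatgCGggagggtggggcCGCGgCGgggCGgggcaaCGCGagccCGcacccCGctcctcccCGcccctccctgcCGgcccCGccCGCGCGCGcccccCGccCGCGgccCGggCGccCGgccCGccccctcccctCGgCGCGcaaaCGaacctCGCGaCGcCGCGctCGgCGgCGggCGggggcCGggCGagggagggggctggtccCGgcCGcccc
Each of the 3 holds more CG than the median gene. A count of letters is a description of the window and was not related to the level of any gene here.

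Replicate 1 at pH 6.5 differed from the other 4. Over the 30 members of the raised stretch its median log2 ratio was 1.16, against 1.59, 1.61, 1.59 and 1.66 in replicates 2 to 5. Beyond HDDC3 its median was -0.30, against -0.44 to -0.54 in replicates 2, 3 and 4 and -0.41 in replicate 5. On the first segment of the chromosome, which holds no member, it stood at -0.22 against -0.45 to -0.49. Replicate 1 was thus nearer to the control over these 3 sets of genes. CDH5 was also nearest to the control in this library. Without replicate 1 the median of the 30 was 1.56, as with it.

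The FaDu pH 7.4 libraries labelled replicates 2 to 5 were not used to choose the members and allow a check of the control level. Fitting each as a sum of FaDu and HCT116 profiles over genes off chromosome 15 gave FaDu shares of 12.8%, 57.0%, 46.5% and 25.7%. For each library the value of every member was then computed from these shares, once with pH 7.4 replicate 1 and once with the pH 6.5 mean as the FaDu profile. Of the 30 members of the raised stretch, 21, 27, 24 and 26 lay nearer to the mixture with pH 7.4 replicate 1. The median log2 ratio of deposited over computed value was 0.04, 0.13, 0.09 and 0.01 with that profile and -0.35, -1.09, -0.94 and -0.68 with the pH 6.5 profile. In replicate 2 the 2 computed mixtures differed by a median of only 0.38, so that library separates them least.

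IDH2 shows the comparison for 1 member. Its deposited values were 1531, 1175, 1268 and 1401, the mixtures with pH 7.4 replicate 1 were 1599, 1186, 1287 and 1465, and those with the pH 6.5 profile were 2505, 5224, 4577 and 3286. In each library the value lay close to the first and below the second. FANCI, at 4694, 6256, 5949.6 and 4912, lay between mixtures of 4563, 5200, 5053 and 4716 and mixtures of 6464, 13673, 11957 and 8536, nearer to the first in each. Other members differed. HAPLN3, at 482, 415, 457 and 508, lay nearer to the pH 6.5 mixture in each library, as did ISG20 and FES. RHCG, at 1.37, 12.1, 8.90 and 1.97, lay below both mixtures in each. Its mixtures with pH 7.4 replicate 1 were 14.3, 62.2, 50.7 and 28.3. Solving for the FaDu part itself, over the members where it was at least 25% of the value, gave median log2 ratios over pH 7.4 replicate 1 of 0.66 (10 members), 0.18 (28), 0.33 (25) and 0.11 (24). With shares from genes restricted to 1 line these were 1.17, 0.35, 0.38 and 0.59, and with the pH 6.5 mean as the reference for the shares 0.83, 0.04, 0.26 and 0.09, so their size depends on how the shares are found. In replicate 2, 6 of the 10 members lay nearer to pH 6.5, and the 2 members whose FaDu part was the larger share had a median of -1.79. These were RHCG, at -3.66 from a deposited value of 1.37, and KIF7, at 0.07. At pH 6.5 the sets of 10, 28, 25 and 24 members of the first estimate had medians between 1.43 and 1.48. Choosing members by the size of the FaDu part can favour high estimates, and the FaDu share was smallest in replicate 2. Whether the choice raised these estimates was not tested.

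**Figure D4:**
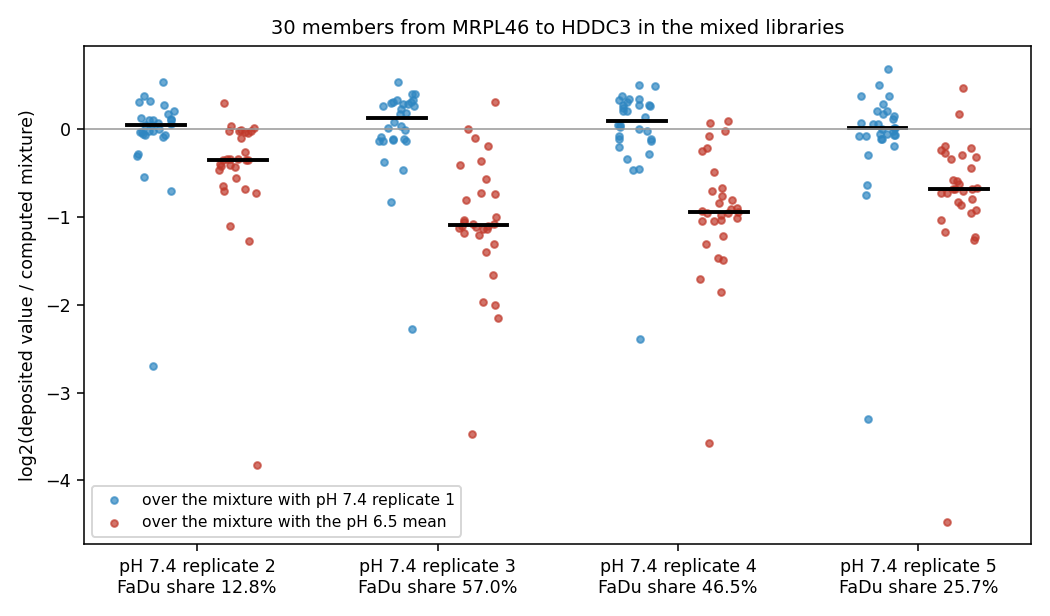
Log2 of the deposited value over the computed mixture for the 30 members from MRPL46 to HDDC3 in FaDu pH 7.4 replicates 2 to 5, with pH 7.4 replicate 1 (blue) or the pH 6.5 mean (red) as the FaDu profile. Each point is a member and black bars are medians. Blue medians lie between 0.01 and 0.13 and red medians between -1.09 and -0.35.

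With all 10 FaDu libraries as labelled, 25 members were higher at pH 6.5 and 4 lower with no overlap between the groups, beside 13.1% and 10.6% of all genes. AEN, HAPLN3, MESP1 and FES were among those that overlapped, and each was higher in mixed libraries than in pH 7.4 replicate 1, as at 2694, 2065, 2310 and 2348 for AEN against 1072. HCT116 at pH 7.4 has these genes at levels above that FaDu library.

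The levels of the raised stretch in FaDu were also set against those of the other lines. The members were chosen on the FaDu contrast, so a rise here follows from that choice. No share over all genes was computed for the counts below, and nothing is read from them. In pH 7.4 replicate 1 the 30 members stood at a median log2 difference of 0.42 from HCT116 and -0.39 from SiHa, both at pH 7.4. At pH 6.5 these differences were 1.86 and 0.90, with 27 and 25 of 30 members above HCT116 and SiHa. The lowest FaDu library at pH 6.5 was above every HCT116 and SiHa library compared for 15 of the 30, and pH 7.4 replicate 1 was for 4. FANCI, for example, was at 21032 ± 2703 (SD, n = 5) in FaDu at pH 6.5 and 6172 in pH 7.4 replicate 1, against 4488 ± 1145 in HCT116 and 4708 ± 1384 in SiHa at pH 7.4 (n = 5 each). Members beyond HDDC3 moved from a median of 0.25 above HCT116 to -0.24, and from 0.22 above SiHa to -0.59.

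**Figure D5:**
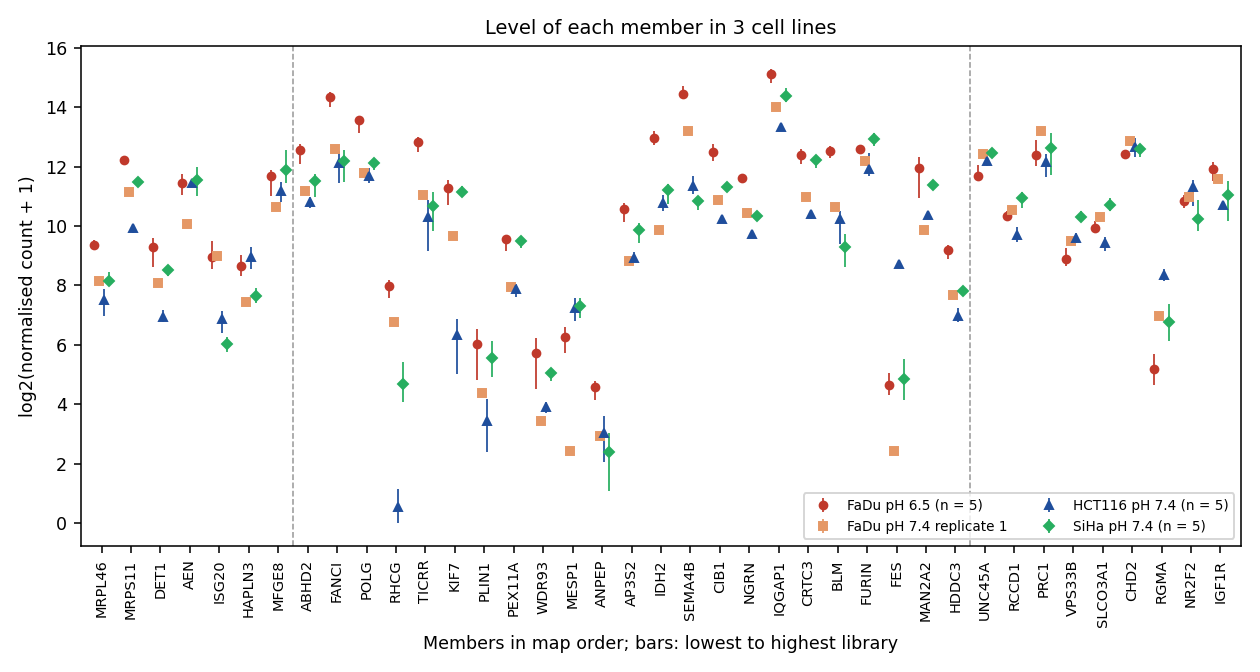
Level of the 39 members as log2 of the normalised count plus 1, in map order, in FaDu at pH 6.5, FaDu pH 7.4 replicate 1, and HCT116 and SiHa at pH 7.4. Symbols are means and bars span the lowest to the highest library. FaDu at pH 6.5 is above pH 7.4 replicate 1 for nearly every member up to HDDC3 and is the highest for many of them, such as FANCI and IDH2.

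Genes elsewhere whose products work with those of the members were compared by lists. Of 117 partners, 4 on chromosome 15 (KIF23, IDH3A, VPS18 and VPS39) were left out; these stood at -0.55, -0.57, -0.70 and -0.28. The 111 others compared in FaDu had a median log2 ratio of 0.13, with 47 higher and 17 lower in all 5 libraries, beside 27.3% and 29.8% of all genes, and only 1 higher by 2-fold or more, PCSK4, a sperm convertase, which was not higher in all 5. All 12 partners of TICRR at replication origins lay above 0, with a median of 0.41 and 11 higher in all 5 libraries, such as GINS1 at 2969 ± 475 against 1786 (0.73). Partners of BLM and the Fanconi genes had a median of 0.27, with 14 of 20 higher in all 5 libraries, such as RMI2 at 0.88 and FANCD2 at 0.66, and 2 lower, among them PALB2 at -0.57. Partners of PRC1 in the spindle midzone had a median of -0.10, with PLK1 at -0.63. The cytosolic counterpart of IDH2, IDH1, was at 5209 ± 578 against 11068 (-1.09), while the 10 genes of isocitrate and glutamate use that include it had a median of 0.22. The 31 other mitochondrial ribosomal protein genes had a median of -0.11, against 1.21 and 1.07 for MRPL46 and MRPS11.

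In SiHa the same genes did not share a ratio. Of 38 members tested, 13 rose and 5 fell at pH 6.5 (limma, adjusted p under 0.05 over all genes; n = 5 per group), beside 19.7% and 21.1% of the 18834 genes tested. Their median log2 change was 0.08, against -0.02 over all genes. Without pH 7.4 replicates 6 and 7, 11 rose and 6 fell, beside 15% and 16.2% of 18555 genes. Up to HDDC3, 10 of 29 members rose and 4 fell, with a median of 0.09, and beyond it 3 of 9 rose and 1 fell, with a median of 0.01. No segment border fell within the members, since the single border of chromosome 15 in SiHa lay between GLCE and PAQR5.

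IDH2 rose most in SiHa. It stood at 5820, 6873, 5253, 6611 and 7475 at pH 6.5 and at 2091, 2618, 2616, 2752 and 1724 at pH 7.4, without overlap, a log2 change of 1.45 ± 0.14 (SE; limma adjusted p = 2.00e-05). PRC1 stood at 10680, 12859.5, 11502, 11244 and 13610.4 against 4338, 8067, 7022, 8963 and 3371, a rise of 1.00 ± 0.23 (limma adjusted p = 0.00483). BLM stood at 1042, 1325, 1142, 1223 and 1108 against 412, 848, 691, 781 and 394, a rise of 0.97 ± 0.20 (limma adjusted p = 0.00298). In PRC1 and BLM the pH 7.4 libraries spread widely, with replicates 1 and 7 lowest, and the groups did not overlap. FANCI rose by 0.78 ± 0.19 (limma adjusted p = 0.00661), from 4708 ± 1384 to 7820 ± 1083, and WDR93 by 0.73 ± 0.17 (limma adjusted p = 0.00452), from 31.8 ± 3.19 to 53.6 ± 6.27.

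Of the members that fell, FES stood at 10.8, 7, 11.7, 5.17 and 5.98 at pH 6.5 and 44.8, 27.5, 29.3, 22.2 and 16.7 at pH 7.4, a change of -1.66 ± 0.32 (limma adjusted p = 0.00182) at low levels. SLCO3A1 stood at 752, 831, 848, 805 and 714 against 1459, 1517, 1451, 1966 and 1892, a change of -1.06 ± 0.10 (limma adjusted p = 2.55e-05). AEN fell from 2989 ± 891 to 1599 ± 405, by -0.88 ± 0.20 (limma adjusted p = 0.00472), with 1 pH 6.5 library above the lowest at pH 7.4. FES and SLCO3A1 did not overlap between groups. The others that rose were RCCD1, DET1, TICRR, MESP1, POLG, NGRN, AP3S2 and CHD2, by 0.29 to 0.73, and the others that fell were HDDC3 and CRTC3, at -0.44 and -0.26. MESP1, AP3S2 and CHD2 did not pass without pH 7.4 replicates 6 and 7 (limma adjusted p = 0.144, 0.205 and 0.177), while NR2F2 and IGF1R, not called with all libraries, then passed (limma adjusted p = 0.00661 and 0.0413). NR2F2 also passed with replicate 7 alone left out. POLG, TICRR, MESP1, AP3S2, CRTC3 and CHD2 also each lost the call when any of several single libraries was left out.

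Partner genes were also tested in SiHa. Partners of PRC1 rose in 10 of 11 cases with a median of 1.08, those of TICRR in 10 of 12 with 0.77, and those of BLM in 14 of 20 with 0.54. Over all 111 partners, 52 rose and 19 fell, with a median of 0.23, beside 19.7% and 21.1% of all genes. IDH1 fell in SiHa by -0.63 ± 0.08 (limma adjusted p = 8.50e-05), and of the genes of isocitrate and glutamate use 3 of 10 fell and 0 rose.

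In HCT116, with pH 6.5 replicates 1 and 3 against 5 libraries at pH 7.4, 2 of 36 members tested rose and 5 fell (limma, adjusted p under 0.05 over all genes), beside 9.11% and 11.1% of 18885 genes. Their median change was -0.14, against -0.01 over all genes, and the members up to HDDC3 had a median of -0.15. Chromosome 15 formed 1 segment. With all 10 libraries as labelled 5 rose and 0 fell (13 at an unadjusted p under 0.05), beside 8.56% and 9.62%, with a median of 0.37. Without pH 6.5 replicate 1, 0 rose and 3 fell, and without pH 7.4 replicate 1, 3 rose and 10 fell, so the count rests on few libraries. Without replicate 1 the pH 6.5 group is a single library, which is assumed to vary as the pH 7.4 libraries do.

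SLCO3A1 fell furthest in HCT116, at 252 and 137 against 769, 765, 786, 577 and 577, by -1.88 ± 0.23 (SE; limma adjusted p = 0.000178). KIF7 stood at 16 and 30.8 against 31.8, 70.6, 116, 102 and 79.1, a change of -1.67 ± 0.45 (limma adjusted p = 0.0206) that was lost without pH 6.5 replicate 1. MFGE8 stood at 857 and 900.0 against 2832, 1785, 2075, 2533 and 2391, a change of -1.38 ± 0.17 (limma adjusted p = 0.000168). None of these 3 overlapped between groups. ABHD2 fell by -0.64 ± 0.14 (limma adjusted p = 0.00654) and IGF1R by -0.51 ± 0.13 (limma adjusted p = 0.0147), the latter not without pH 6.5 replicate 1. DET1 rose by 0.73 ± 0.21 (limma adjusted p = 0.0274) and HDDC3 by 0.73 ± 0.21 (limma adjusted p = 0.0279), but DET1 lost the call in 5 of the 7 fits that left out 1 library and HDDC3 in 3 of 7. IDH2, at 1811 and 1371 against 1453 to 2113, did not pass (-0.15 ± 0.17, limma adjusted p = 0.573), nor did BLM, FANCI, TICRR or PRC1, at -0.22, -0.27, -0.42 and -0.20.

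Side by side, IDH2 had log2 values of 3.11 in FaDu, 1.45 in SiHa and -0.15 in HCT116, and PRC1 had -0.81, 1.00 and -0.20. SLCO3A1 was lower in all 3 lines, at -0.37, -1.06 and -1.88. The differences between lines were not tested.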

How the data were processed

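The deposited table holds normalised counts per gene (signal), made by the authors by dividing read counts by a size factor for each library. Per the submitters' processing notes, the tools were STAR 2.6.1d, Trimmomatic 0.38, bcl2fastq 2.20, FastQC and DESeq2 1.22.2, with GRCh37 as build. No source used here names the counter, its strand setting or the annotation. Dividing by each library's smallest step gave whole reads for 100% of values within 0.01, and depths come from these. The members and lists were chosen with earlier results of these data known.

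Ratios are log2 of the mean at pH 6.5 plus a pseudocount of 1 over the control plus 1, for genes whose mean reached 10 in either group, so the ratio of a low gene is understated. FaDu was described without a test. SiHa and HCT116 were tested with limma 3.58.1 in R 4.3.3 on log2 values over all genes, with Benjamini-Hochberg adjustment and a threshold of 0.05. Members that passed are named, and where more than 8 passed the 8 largest changes are given in full. Gene order came from GENCODE 29 and promoters from RefSeq (GRCh38.p14), used for order, names and sequence only. Neighbours were segmented by least absolute deviation from the median of each segment, with a penalty of 6 per segment. The penalties of 3 and 9 were chosen after seeing the data. The 4 mixed FaDu libraries were fitted as non-negative sums of FaDu and HCT116 profiles. Alternatives were other pseudocounts and filters, TMM scaling, edgeR 4.0.16 and DESeq2 1.42.0 on the recovered reads, 1 fit over all groups, the replicate block, libraries as labelled and each library left out. The fits were also run on simulated data. For limma these had independent libraries and the same spread setting for every gene, which need not hold here, so no result rests on them. Python 3.11.15 was used for the rest. Intervals from read floors cover counting error only.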

Additional observations from a re-analysis of the deposited data

Results flagged for a closer look

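In 5 of 85 groups of 5 values examined, 1 library stood far from the other 4, and chance alone flags about 1 in 20 groups. All 5 were FaDu pH 6.5 replicate 1. MFGE8 was lowest there at 2053, with the others at 3369 to 3785, and PEX11A was lowest at 566, with the others at 774 to 818. UNC45A was highest there at 4286, with the others at 2940.0 to 3247, and SLCO3A1 was highest at 1142, with the others at 913 to 955. The median log2 ratio of the members from ABHD2 to HDDC3 was lowest there at 1.218, with the others at 1.66 to 1.75. HDDC3 moved in opposite directions in the other lines, with a log2 change of -0.44 in SiHa and 0.73 in HCT116. That difference was not tested.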

How the results depend on the processing

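Of the values of single members called in SiHa or HCT116 under each alternative, 398 kept direction and call, 78 lost the call and 2 reversed. The 2 were ABHD2 (0.31) and KIF7 (1.96) in HCT116 with all libraries as labelled, where 3 of 5 pH 6.5 libraries carry SiHa RNA. Leaving out 1 library gave 12 to 17 members called in SiHa and 3 to 13 in HCT116. The replicate block gave 15 (11 higher, 4 lower) and 6 (2 higher, 4 lower), against 18 and 7 without it. The replicate numbers did not consistently pair the samples. Correlations of same-numbered libraries were 0.45, -0.0029, 0.027, 0.22 and 0.093 in SiHa and 0.23 and 0.096 in HCT116. The same-numbered library was the best match for SiHa replicates 1, 6 and 7 and HCT116 replicate 1. It was not for SiHa replicates 4 and 5 and HCT116 replicate 3, so pairing of some samples stays possible. The FaDu median of all members was 1.26, or 1.09 as a mean, 1.63 as labelled and 1.24 to 1.34 with 1 library left out. As labelled the median was 1.76 up to HDDC3 and -0.32 beyond it, and 4 members were lower in every library instead of 7. The FaDu part of the mixed libraries moved to 1.17 (replicate 2) and 0.59 (replicate 5) with shares from genes restricted to 1 line. In replicate 2 it reversed to -1.79 over the 2 members left when the FaDu part had to be larger, RHCG at -3.66 and KIF7 at 0.07. The deposited RHCG value in that library was 1.37, below the 2.05 that 3 reads correspond to there. The cause of the moves with the restricted genes was not tested. The single control library limits every FaDu value: its own spread is unknown.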

Other observations

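IDH1, the cytosolic counterpart of IDH2, lies on another chromosome and was lower at pH 6.5 in each line. Its log2 ratio was -1.09 in FaDu (not tested), -0.63 ± 0.08 in SiHa (limma adjusted p = 8.50e-05) and -0.55 ± 0.14 in HCT116 (limma adjusted p = 0.0173). IDH2 stood at 3.11, 1.45 and -0.15.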
